A study of Rattus norvegicus with 6 samples.

Results

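The high mobility group (HMG) genes are described here in cultured neonatal rat ventricular myocytes (NRVM), a primary culture of heart muscle cells from newborn rats. The 8 genes are Hmga1, Hmga2, Hmgb1, Hmgb2, Hmgb3, Hmgn1, Hmgn2 and Hmgn3, found by symbol among 13843 features of 1 expression table. Each stands on 1 row, and 6 of them reached the mean of 1 FPKM (fragments scaled to transcript length and to the mapped reads of the library) that was needed for a test. The family was chosen by measured values, since the 6 libraries had been examined before and the low Hmga1 level under the JIP1 hairpin was known. That difference is therefore given as a description, with no test, and the tests of the other genes come from a table that had been seen.

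There were 3 groups of 2 libraries, all kept for 3 days with phenylephrine (PE), which stimulates alpha-1 adrenergic receptors and enlarges cardiomyocytes. PE+TSA+shJIP1 had PE, TSA and a short hairpin directed at JIP1. PE+TSA had PE, TSA and a control hairpin, and PE had PE and that control hairpin. TSA usually stands for trichostatin A, a histone deacetylase inhibitor, and is not spelled out in the labels, which also call the hairpin group a JIP1 knockout. JIP1 is the JNK pathway scaffold encoded by Mapk8ip1. The labels do not say whether replicates are separate cultures, so p-values measure only the spread between these libraries, and that spread may be technical. Below, the hairpin comparison is PE+TSA+shJIP1 minus PE+TSA, the TSA comparison is PE+TSA minus PE, and the combined comparison is PE+TSA+shJIP1 minus PE.

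HMG proteins are abundant, non-histone proteins of chromatin that fall into 3 families. HMGA proteins hold the minor groove of AT-rich DNA with short AT hooks, and are plentiful in embryos and dividing cells and scarce in most adult tissues. HMGB proteins bend DNA with a pair of HMG boxes, and HMGB1 also leaves injured cells and acts on surface receptors as an alarm signal. HMGN proteins bind directly to nucleosomes and compete there with linker histone.

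Only Hmga1 and Hmgn3 were measured at high levels, so the sequences around their transcription starts are shown. Each is a 300-base window of RefSeq on the rat assembly GRCr8, from 250 bases before the start to 50 after it, 5′ to 3′ on the strand of the gene. The Hmga1 window is chr20:5613258-5613557 on the plus strand and the Hmgn3 window is chr8:92939115-92939414 on the minus strand. Capitals mark matches, on either strand, to any of 6 searched motifs.
Hmga1: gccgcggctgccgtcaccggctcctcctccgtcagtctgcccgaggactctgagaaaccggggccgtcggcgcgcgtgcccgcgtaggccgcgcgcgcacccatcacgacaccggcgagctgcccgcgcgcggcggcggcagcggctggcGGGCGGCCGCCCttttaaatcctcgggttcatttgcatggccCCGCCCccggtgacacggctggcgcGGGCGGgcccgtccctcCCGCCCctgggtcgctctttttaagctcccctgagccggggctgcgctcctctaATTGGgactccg
Hmgn3: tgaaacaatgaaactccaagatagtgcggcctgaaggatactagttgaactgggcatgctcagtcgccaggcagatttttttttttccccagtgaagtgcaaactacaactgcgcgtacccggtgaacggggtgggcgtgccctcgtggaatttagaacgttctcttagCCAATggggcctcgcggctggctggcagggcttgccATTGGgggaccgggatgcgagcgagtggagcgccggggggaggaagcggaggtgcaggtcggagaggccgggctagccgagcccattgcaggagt

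The motifs were the GC box GGGCGG, the CCAAT box CCAAT, the TATA box TATAAA, the E2F sequence TTTCGCGC or TTTGGCGC, the AP-1 sequence TGANTCA and the Myc E-box CACGTG. The Hmga1 window held 5 GC boxes, of which the first 2 abut, and 1 CCAAT box, and was 74% G and C with 44 CpG dinucleotides. The Hmgn3 window held no GC box and 2 CCAAT boxes, and was 59.3% G and C with 20 CpG dinucleotides. Over 33469 rat promoter windows of the same length, 33.1% held a GC box and 37.5% a CCAAT box, and the medians were 51.7% G and C and 7 CpG dinucleotides. Neither window had a match to the TATA box, E2F, AP-1 or Myc letters, which occur in 14.2%, 0.792%, 7.33% and 6.42% of windows. All 8 genes matched an entry, and the window of Hmgn1 also held 5 GC boxes. A match is a description of letters and not of a bound factor.

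Hmga1, the AT-hook protein HMGA1, was the most abundant member in 4 of the 6 libraries. Its level was 36.3 and 39.7 FPKM in PE+TSA+shJIP1, against 151 and 163 FPKM in PE+TSA and 117 and 111 FPKM in PE. The groups did not overlap: both hairpin libraries were the lowest, both PE+TSA libraries the highest, and the libraries of a group lay close together. Means were 38.0 ± 2.4 FPKM in PE+TSA+shJIP1, 157 ± 8.7 FPKM in PE+TSA and 114 ± 4.2 FPKM in PE (SD, n = 2 each). The hairpin mean was 24.2% of the PE+TSA mean and 33.2% of the PE mean. Among all features of a library, Hmga1 stood at percentiles 85.2 and 86.9 in PE+TSA+shJIP1, 96.9 and 97.3 in PE+TSA, and 95.4 and 96.0 in the PE libraries.

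**Figure D1:**
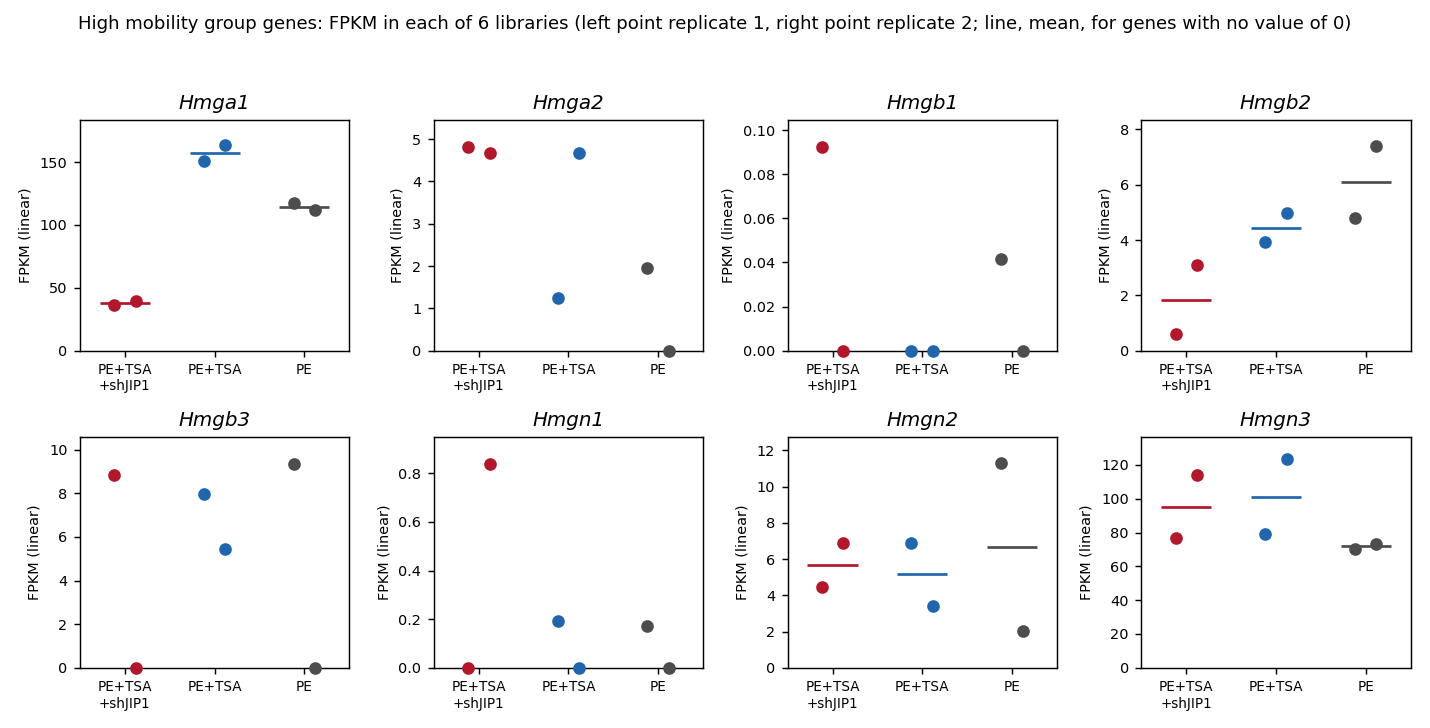
FPKM of the 8 genes (y axes, linear and starting at 0, 1 scale per gene) in the 2 libraries of PE+TSA+shJIP1, PE+TSA and PE (x axis); points are libraries and lines are means, drawn only for genes with no value of 0. Hmga1 sits at 36.3 and 39.7 FPKM in the hairpin libraries and at 111 FPKM or more in the other 4, while the panels of Hmgb1 and Hmgn1 do not reach 1 FPKM.

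On the log2(FPKM + 1) scale of limma, Hmga1 differed by 0.45 ± 0.18 (SE) between PE+TSA and PE. This did not pass over all features (limma unadjusted p = 0.0431, adjusted p = 0.25), although both PE+TSA libraries were above both PE libraries. The descriptive log2 difference was -2.02 ± 0.18 between PE+TSA+shJIP1 and PE+TSA and -1.57 ± 0.18 between PE+TSA+shJIP1 and PE. The comparison that drew attention to the gene was the hairpin one. The TSA comparison shares its PE+TSA libraries, and the combined comparison shares its hairpin libraries. Neither is independent of it, so both differences of Hmga1 are descriptions as well. Under 15 alternative settings the hairpin difference stayed between -2.08 and -1.96.

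Hmga2, the second AT-hook protein and a mark of embryonic and mesenchymal cells, was a low gene with a different order of levels. It had 4.81 and 4.67 FPKM in PE+TSA+shJIP1, 1.25 and 4.67 FPKM in PE+TSA, and 1.96 FPKM in PE replicate 1, and it was listed at 0 in PE replicate 2. Both hairpin libraries were above both PE libraries, while PE+TSA replicate 1 lay within the PE range and PE+TSA replicate 2 level with the hairpin libraries. The log2 difference was 1.74 ± 0.67 between PE+TSA+shJIP1 and PE (unadjusted p = 0.0386, adjusted p = 0.141), 0.68 ± 0.67 between PE+TSA+shJIP1 and PE+TSA (adjusted p = 0.692) and 1.06 ± 0.67 between PE+TSA and PE (adjusted p = 0.427). None passed. The value of 0 came from a far shallower library: from the steps between low values, PE replicate 2 had 0.0481 of the depth of PE replicate 1, and the other 4 libraries 0.72 to 1.34 of it. FPKM hold no totals, so absolute depth is unknown and no counting intervals are given. Without PE replicate 2 the combined difference was 0.96 and the TSA difference 0.27, and without PE replicate 1 the TSA difference was 1.84. The TSA difference was 0.39 without PE+TSA replicate 2 and 1.72 without PE+TSA replicate 1. The hairpin difference was 0.02 without PE+TSA replicate 1 and 1.35 without PE+TSA replicate 2.

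Hmgb2, the HMG-box protein of dividing cells, was lowest under the hairpin. It was at 0.590 and 3.08 FPKM in PE+TSA+shJIP1, 3.91 and 4.98 FPKM in PE+TSA, and 4.79 and 7.38 FPKM in PE. The hairpin libraries lay below the other 4, the PE+TSA and PE libraries overlapped, and the hairpin libraries differed from each other by more than those of any other group on the log2 scale. The log2 difference was -1.09 ± 0.51 between PE+TSA+shJIP1 and PE+TSA (adjusted p = 0.39), -0.36 ± 0.51 between PE+TSA and PE (adjusted p = 0.727) and -1.45 ± 0.51 between PE+TSA+shJIP1 and PE (unadjusted p = 0.0282, adjusted p = 0.119). None passed. Leaving out PE+TSA+shJIP1 replicate 1 gave -0.41 against PE+TSA, and leaving out PE+TSA+shJIP1 replicate 2 gave -1.77, so the size of this difference was set by the hairpin library kept.

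Hmgb3, an X-linked HMG-box gene known from blood stem cells, gave no usable comparison. It was at 8.85 FPKM in PE+TSA+shJIP1 replicate 1, 7.96 and 5.46 FPKM in PE+TSA and 9.32 FPKM in PE replicate 1, and was listed at 0 in PE+TSA+shJIP1 replicate 2 and PE replicate 2. The hairpin library with the 0 had 0.72 of the depth of PE replicate 1. The SE of every log2 difference was 1.37, and adjusted p-values were 0.72, 0.646 and 0.993 in the hairpin, TSA and combined comparisons. The sign turned when a single library was left out in each of them.

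Hmgb1, the best known member and in most tissues an abundant protein, was hardly measured at all. It had 0.0923 FPKM in PE+TSA+shJIP1 replicate 1 and 0.0417 FPKM in PE replicate 1, and was listed at 0 in the other 4 libraries. Given the relative depths, these values are in the ratio of 2 reads to 1 read (deviation 0.000406%), the smallest whole numbers that they allow. If they were 2 reads and 1 read, a single read of Hmgb1 was worth 0.867 FPKM in PE replicate 2. In the other 5 libraries it was then worth 0.0311 to 0.0579 FPKM. With larger counts in that ratio, a read was worth less in every library. The row named Hmgb1-ps2, a pseudogene by its symbol, was also low, with 0.0556 FPKM in PE+TSA+shJIP1 replicate 1, 0.201 and 1.04 FPKM in PE and 0 elsewhere. Hmgb1 was not tested, and no level or change of it can be given.

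Hmgn1, a nucleosome-binding protein, was in the same position. It was at 0.837 FPKM in PE+TSA+shJIP1 replicate 2, 0.193 FPKM in PE+TSA replicate 1 and 0.172 FPKM in PE replicate 1, and listed at 0 in the other libraries. These values are in the ratio of 7, 3 and 2 reads, again as the smallest whole numbers allowed (deviation 0.000318%).

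A listing near 0 is not a measure of RNA for such genes in this table. Among other genes that nearly all cells use, Rpl32 was listed at 0 in 4 libraries, Rps18 in 3 and Ppia in 2, and Gapdh averaged 2.19 FPKM. The rat RefSeq table of GRCr8 names 23 further loci after Hmgb1 (5 gene-like and 18 pseudogenes), 7 after Hmgn2, 5 each after Hmgb2 and Hmgn1, 4 after Hmga1 and 3 after Hmgb3, and none after Hmga2 or Hmgn3. How reads shared by such copies were assigned is not given in the sources, and the levels of the genes with copies are therefore uncertain; the part of the copies in the low values was not tested.

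Hmgn2, a small HMGN protein found in most cells, was at 4.47 and 6.90 FPKM in PE+TSA+shJIP1, 6.91 and 3.40 FPKM in PE+TSA, and 11.3 and 2.05 FPKM in PE. The groups overlapped in every comparison, and the widest gap was between the PE libraries. Log2 differences were 0.16 ± 0.69, -0.05 ± 0.69 and 0.10 ± 0.69 in the hairpin, TSA and combined comparisons (adjusted p = 0.939, 0.975 and 0.936), and the combined one was -0.03 with quantile normalization.

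Hmgn3, an HMGN protein first found as a partner of the thyroid hormone receptor, was the other abundant member. It was at 76.6 and 114 FPKM in PE+TSA+shJIP1, 78.9 and 124 FPKM in PE+TSA, and 70.5 and 73.3 FPKM in PE. The PE libraries were the lowest and lay close together, while in each TSA group replicate 2 was well above replicate 1. Means were 95.3 ± 26.5 FPKM in PE+TSA+shJIP1, 101 ± 31.6 FPKM in PE+TSA and 71.9 ± 2.0 FPKM in PE (SD, n = 2 each). Log2 differences were -0.08 ± 0.30 between PE+TSA+shJIP1 and PE+TSA, 0.45 ± 0.30 between PE+TSA and PE and 0.37 ± 0.30 between PE+TSA+shJIP1 and PE (adjusted p = 0.929, 0.443 and 0.431). None passed. The TSA difference was 0.13 without PE+TSA replicate 2 and 0.77 without PE+TSA replicate 1, and the combined one 0.09 without PE+TSA+shJIP1 replicate 2 and 0.66 without PE+TSA+shJIP1 replicate 1.

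Counted over the family, 1 of the 6 tested genes passed in the hairpin comparison, beside 0.29% of all 10359 tested features. It was Hmga1, the gene whose value was known, and nothing is read from that count. None of 6 passed with TSA, beside 0.811% of features, and 1 had an unadjusted p under 0.05, beside 18.7% of features. That 1 was Hmga1, whose PE+TSA libraries were part of the known difference, so nothing is read from it. In the combined comparison 8.27% of features passed, and of the members only Hmga1, whose low hairpin libraries were known, so nothing is read from that either. Of the other 5 tested genes, Hmga2 and Hmgb2 had an unadjusted p under 0.05 there, beside 30.7% of features. Groups did not overlap for 2 genes in the hairpin comparison (Hmga1 and Hmgb2, both lower), against 50% of features, for 2 genes with TSA (Hmga1 and Hmgn3, both higher), against 50.6% of features, and for 4 genes in the combined comparison (Hmga2 and Hmgn3 higher, Hmga1 and Hmgb2 lower), against 60.6% of features. These shares are close to the background. The median log2 difference of the tested genes was -0.58, 0.45 and 0.03 in the hairpin, TSA and combined comparisons, against -0.003, 0.10 and 0.10 over all features. The hairpin and combined medians include Hmga1, whose low hairpin libraries were known, so nothing is read from them. In the hairpin comparison the other 5 went both ways: Hmga2 0.68, Hmgb2 -1.09, Hmgb3 -1.28, Hmgn2 0.16 and Hmgn3 -0.08. The TSA median of all features was -0.02 with quantile normalization.

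**Figure D2:**
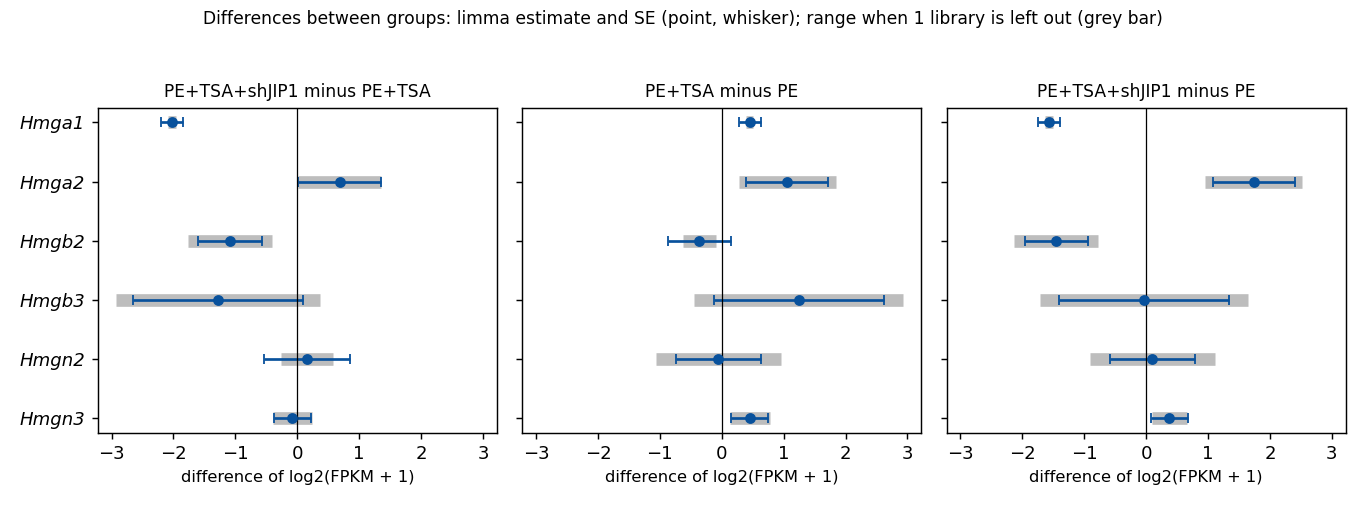
Difference of log2(FPKM + 1) (x axis) for the 6 tested genes (y axis) in the 3 comparisons, each named in its panel title; points are limma estimates, whiskers are SE and grey bars span the estimates when 1 of the 6 libraries is left out. The Hmga1 estimates of -2.02, 0.45 and -1.57 have the narrowest bars, and the Hmgb3 and Hmgn2 bars cross 0 in each panel.

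The share of each gene in the summed FPKM of the 8 genes does not depend on how libraries are scaled. The sum was 132 and 169 FPKM in PE+TSA+shJIP1, 250.2 and 306 FPKM in PE+TSA, and 215.5 and 194 FPKM in PE. Of this sum, Hmga1 held 27.6% and 23.5% in the PE+TSA+shJIP1 libraries, against 60.4% and 53.5% for PE+TSA and 54.5% and 57.4% for PE. Hmgn3 held 58.1% and 67.4% in the PE+TSA+shJIP1 libraries, against 31.5% and 40.4% for PE+TSA and 32.7% and 37.7% for PE. The order of the 2 genes was thus turned round in both hairpin libraries. This restates the low Hmga1 level that was known when the family was chosen, and is no further result. Hmgn3 itself differed by -0.08 ± 0.30 in the hairpin comparison (limma adjusted p = 0.929), so its share rose as that of Hmga1 fell. The ratio of Hmga1 to Hmgn3 was 0.474 and 0.348 for PE+TSA+shJIP1, 1.92 and 1.32 for PE+TSA, and 1.67 and 1.52 for PE, with the last 2 groups overlapping. Together these genes made up 85.7% to 95.1% of the sum in every library. The HMGB genes held 1.82% to 7.24%, which includes the near-absent Hmgb1.

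**Figure D3:**
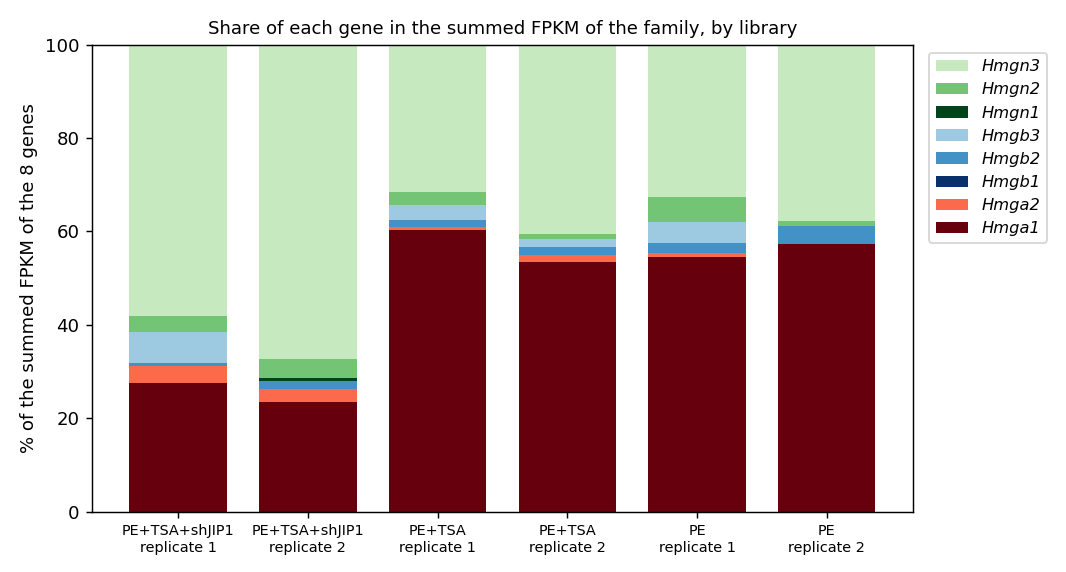
Percent of the summed FPKM of the 8 genes (y axis, from 0) that each gene holds in each library (x axis, with PE+TSA+shJIP1, PE+TSA and PE from left to right). Hmga1 takes 27.6% and 23.5% of the hairpin bars and at least 53.5% of the other 4.

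Across the 6 libraries, the 5 features whose log2 levels were most like those of Hmga1, out of 7440 with a mean of at least 5 FPKM and 1 row, were Ppp2r1a, Fbxo32, Tubgcp3, Cldnd1 and Elf4 (Pearson r 0.998, 0.996, 0.994, 0.994 and 0.99). Ppp2r1a, the scaffold subunit of the phosphatase PP2A, was at 41.7 and 43.3 FPKM in PE+TSA+shJIP1, 84.2 and 82.8 FPKM in PE+TSA, and 75.1 and 71.0 FPKM in PE. Fbxo32, the muscle ubiquitin ligase atrogin-1, was at 12.9 and 14.5 FPKM in PE+TSA+shJIP1, 39.5 and 46.8 FPKM in PE+TSA, and 36.9 and 32.0 FPKM in PE. That they were lowest in the hairpin libraries follows from how they were picked; their hairpin differences were smaller than that of Hmga1. With 3 groups that lie apart, 91 of the 7440 features (1.22%) had an r above 0.95. Mapk8ip1, the target of the hairpin, had an r of 0.80 with Hmga1, and among the tested members r ran from -0.47 (Hmga2) to 0.76 (Hmgb2).

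**Figure D4:**
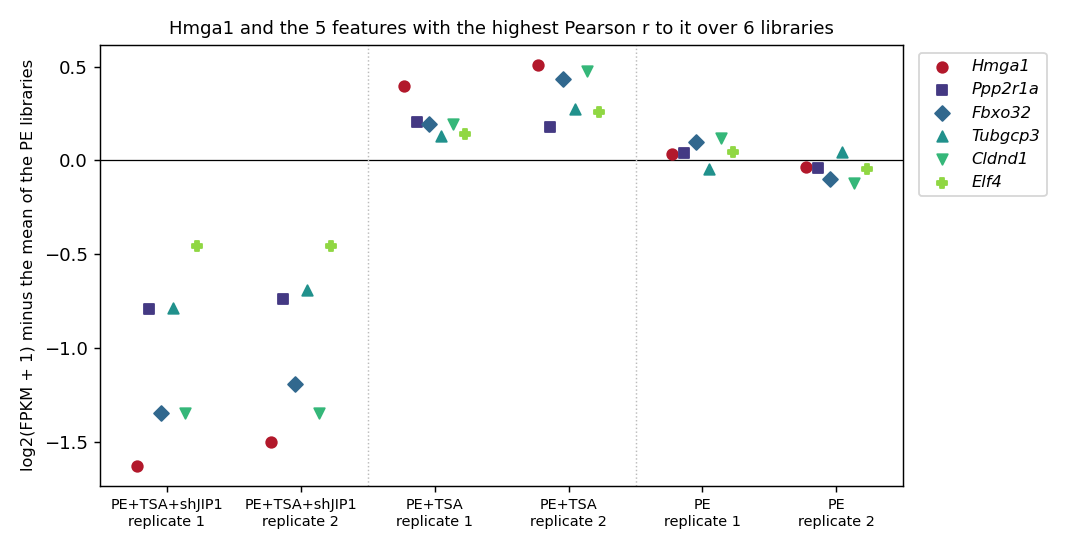
Log2(FPKM + 1) minus the mean of the PE libraries (y axis) in each of 6 libraries (x axis) for Hmga1 and the 5 features with the highest r to it; points are libraries. All 6 genes lie below 0 in PE+TSA+shJIP1 and above it in PE+TSA, and Hmga1 lies farthest below.

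Mapk8ip1 itself was at 1.80 and 3.65 FPKM in PE+TSA+shJIP1, 14.6 and 17.9 FPKM in PE+TSA, and 3.77 and 4.39 FPKM in PE. The hairpin libraries were the lowest, which is the direction the labels call for. However, the log2 difference of -2.25 ± 0.34 between PE+TSA+shJIP1 and PE+TSA did not pass over all features (adjusted p = 0.077). Against PE the difference was -0.49 ± 0.34 (adjusted p = 0.369), with hairpin replicate 2 close to PE replicate 1.

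Other genes with an HMG box, the DNA-binding fold of HMGB proteins, showed no common direction. Of 33 listed, 23 features were tested. None passed in the hairpin comparison or with TSA, beside 0.29% and 0.811% of all features. With the hairpin 12 were higher and 11 lower, and 1 had an unadjusted limma p under 0.05, beside 14.9% of features. With TSA 16 were higher and 7 lower, and 3 had an unadjusted limma p under 0.05, beside 18.7% of features. In the combined comparison 13 were higher and 10 lower, and 8 had an unadjusted limma p under 0.05, beside 30.7% of features. There 1 passed, beside 8.27% of features, so nothing is read from the count. It was listing 2 of 2 of the transcription factor Sox4, at 38.4 and 40.2 FPKM in PE+TSA+shJIP1 and 11.8 and 4.98 FPKM in PE. Its log2 difference was 2.21 ± 0.39 (limma adjusted p = 0.0288), with PE+TSA between the 2 groups at 19.5 and 13.8 FPKM. The other listing of Sox4 differed by -0.44. Hmg20b, a subunit of the CoREST corepressor complex, had 38.3 and 32.3 FPKM in PE+TSA and 58.8 and 92.7 FPKM in PE (adjusted p = 0.137). Tox2 had 2.42 and 6.12 FPKM in PE+TSA, 0.185 FPKM in PE replicate 1 and listed at 0 in PE replicate 2 (adjusted p = 0.115). Sox13 was at 7.52 and 6.72 FPKM in PE+TSA+shJIP1 and 2.88 and 2.08 FPKM in PE (adjusted p = 0.0586). The medians of the list were 0.02, 0.25 and 0.21 in the hairpin, TSA and combined comparisons.

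Genes tied to single members were followed as well. Of 10 receptors and partners of HMGB1 outside the cell, 7 were tested. None passed in the hairpin, TSA or combined comparison, beside 0.29%, 0.811% and 8.27% of all features. In the same order 0, 1 and 2 had an unadjusted limma p under 0.05, beside 14.9%, 18.7% and 30.7% of features. Thbd, the thrombomodulin that binds HMGB1, had 11.2 and 16.1 FPKM in PE+TSA and 2.17 and 5.58 FPKM in PE (limma adjusted p = 0.137). Cd14, a co-receptor of Toll-like receptors, was at 2.51 and 0.719 FPKM in PE+TSA+shJIP1 and 3.49 and 6.72 FPKM in PE (adjusted p = 0.142). Tlr2, a Toll-like receptor, and Myd88, its adaptor, differed by -0.93 and -0.67 on the log2 scale in the hairpin comparison (adjusted p = 0.475 and 0.387). Ager, which encodes the receptor RAGE, differed by 0.04, -0.06 and -0.02 in these comparisons. All 5 partners of HMGB2 in the SET complex were tested and none passed. None had an unadjusted limma p under 0.05, beside the same shares of features. Their smallest p-values were those of Set (-0.77 with TSA, adjusted p = 0.276), Apex1 (0.67 combined, adjusted p = 0.292), Trex1 (-0.56 combined, adjusted p = 0.372) and Nme1 (0.30 with the hairpin, adjusted p = 0.534). Of 5 genes of the let-7 and IGF2BP group, 2 were tested. Igf2bp2, an RNA-binding protein whose gene HMGA2 activates in mice, rose in the combined comparison, in which 8.27% of all features passed. It was at 42.4 and 36.6 FPKM in PE+TSA+shJIP1 against 18.3 and 16.5 FPKM in PE (log2 difference 1.13 ± 0.21, limma adjusted p = 0.0317). In PE+TSA, Igf2bp2 was at 30.8 and 36.4 FPKM, and its hairpin difference was 0.23 (adjusted p = 0.67). Igf2bp1 was at 21.4 and 18.4 FPKM in PE+TSA+shJIP1 and 14.6 and 9.76 FPKM in PE (adjusted p = 0.163).

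Of 18 proliferation genes, the setting in which Hmgb2 is best known, 17 were tested. None passed in the hairpin comparison (13 lower, 1 with an unadjusted p under 0.05, beside 14.9% of features) or with TSA (16 lower, 10 with an unadjusted p under 0.05, beside 18.7% of features). Those 10 include Cdk1, the only gene of the list that was higher with TSA (log2 difference 3.63). In the combined comparison 3 fell, beside 8.27% of features that passed, and all 17 were lower. Those that passed were Cdc20 (1.13 and 2.31 FPKM in PE+TSA+shJIP1 against 16.4 and 12.3 FPKM in PE), Tk1 (1.31 and 2.39 against 14.5 and 13.6 FPKM) and Top2a (1.27 and 0.719 against 31.6 and 11.1 FPKM), with adjusted p = 0.0194, 0.0184 and 0.0288. In PE+TSA, Cdc20 was at 2.04 and 2.95 FPKM, Tk1 at 3.48 and 2.37 FPKM and Top2a at 6.39 and 2.34 FPKM. Their hairpin differences were -0.39, -0.47 and -1.33. The calls of Sox4, Igf2bp2, Cdc20, Tk1 and Top2a in the combined comparison each ended when only those 2 groups were fitted, and when any library other than PE replicate 1 was left out. That of Top2a also ended without PE replicate 1, those of Sox4, Cdc20 and Top2a with no filter on low values, and that of Igf2bp2 with a common prior variance. Cdk1, the mitotic kinase, was at 3.41 FPKM and 0 in PE+TSA+shJIP1, 183 and 296 FPKM in PE+TSA, and 77.7 and 3.56 FPKM in PE, and its low value in PE stood in the shallow library.

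**Figure D5:**
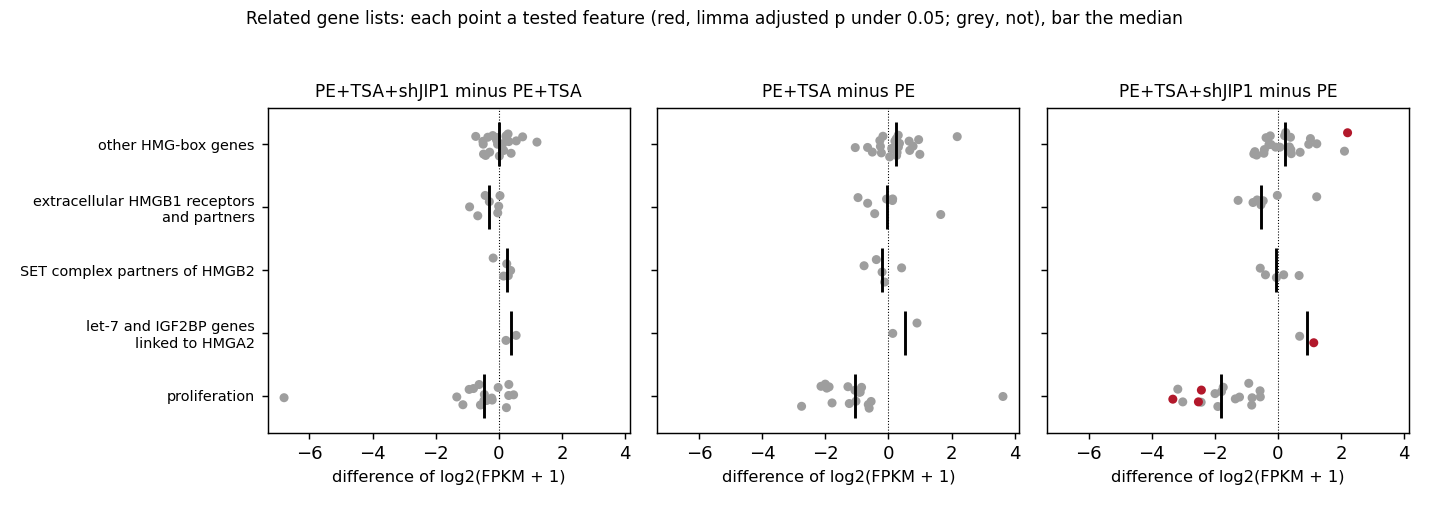
Difference of log2(FPKM + 1) (x axis) of every tested feature of 5 related gene lists (y axis) in the 3 comparisons; red points passed the limma threshold, grey points did not, and bars are list medians. Red points appear in the combined comparison only, 1 HMG-box feature and Igf2bp2 to the right and 3 proliferation genes to the left; the grey point near -6.8 is Cdk1, which had an adjusted p of 0.111.

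In bulk RNA, fewer cells of a type and less RNA per cell cannot be told apart. Cardiomyocyte markers were present in every library, with none at 0. Their summed level was 5929 to 11030 FPKM in PE+TSA+shJIP1, 5849 to 11730 FPKM in PE+TSA, and 21020 to 25870 FPKM in PE. With TSA, all 9 tested cardiomyocyte, all 7 fibroblast and all 5 smooth muscle and pericyte markers were lower. So were 2 of 6 endothelial and 3 of 4 macrophage markers. In the combined comparison, 8.27% of all features passed. Among cardiomyocyte markers Pln and Tnni3 fell there (limma adjusted p = 0.049 and 0.0275), and Dcn among fibroblast markers (adjusted p = 0.0338). Among smooth muscle markers Acta2 and Myh11 fell (adjusted p = 0.0143 and 0.0416). Acta2 also fell with TSA (adjusted p = 0.0332), where 0.811% of features passed. These marker calls were not followed in the alternative settings. With only those 2 groups fitted, 4 of all features passed in the combined comparison. Fibroblast markers summed to 564 to 675, 523 to 728 and 1048 to 1702 FPKM in the same order, smooth muscle and pericyte markers to 486 to 510, 248 to 390 and 1316 to 1637 FPKM, endothelial markers to 12.6 to 16.4, 20.0 to 40.6 and 15.8 to 18.0 FPKM, and macrophage markers to 8.36 to 8.81, 9.36 to 11.4 and 13.9 to 14.9 FPKM. Between PE+TSA+shJIP1 and PE+TSA, where Hmga1 differed most, the cardiomyocyte, fibroblast, smooth muscle, endothelial and macrophage medians were -0.09, 0.05, 0.20, -0.35 and -0.10 on the log2 scale. Tested there were 9 cardiomyocyte, 7 fibroblast, 6 endothelial, 5 smooth muscle and 4 macrophage markers, and none passed. Of these markers 5 had an unadjusted limma p under 0.05, beside 14.9% of all features, so nothing is read from the count. Pln (-2.22), Tnni3 (-1.20) and the endothelial receptor Kdr (-1.96) were lower, and Tagln (1.78) and Cnn1 (0.63) higher. The part of cell make-up in the HMG levels was not tested.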

How the data were processed

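RNA was sequenced from 6 libraries of cultured cells, with a column kit for extraction and an Illumina kit for libraries, per the labels' protocols. The deposited table gives 1 FPKM value per feature and library, with no unit in its header. Per the submitters' processing notes, Cufflinks was among the tools and rn6 was the build; neither has a stated role. No source used here gives the aligner, the annotation, the handling of multiply mapped reads or the strand. Values were used as deposited. Group means of log2(FPKM + 1) were estimated by limma 3.58.1 (R 4.3.3) for the 10359 features averaging 1 FPKM or more across the 6 libraries, with the prior variance trended on the mean level. Two-sided p-values were adjusted (Benjamini-Hochberg) over all of these features within each comparison, at a threshold of 0.05. The fit was tested on simulated data. Fold changes on this scale understate the change of low genes. The combined comparison is PE+TSA+shJIP1 minus PE, and it shares libraries with the other 2.

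Relative depth came from the most frequent ratio of values below 0.3 FPKM to those of PE replicate 1 (below 6 FPKM in the shallow PE replicate 2), held by 21 to 48 features. Whole-read ratios were accepted within 0.1%. Members, lists and the rule for named genes were chosen with earlier results of these data known: each list gene that passed, the 4 smallest p of a list, and the 5 features most like Hmga1. Of 13556 symbols, 12356 match a current RefSeq symbol of GRCr8; this assembly differs from rn6, so it served for names, copies and promoter sequences only. There were 15 alternatives: pseudocount, filters, scaling, prior, library weights, 2-group fits, a replicate block and leaving out each library.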

Additional observations from a re-analysis of the deposited data

How the results depend on the processing

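Of all features, 84, 30 and 857 passed in the TSA, hairpin and combined comparisons. With no filter on low values the counts were 3, 0 and 374 (1898 features had an unadjusted limma p under 0.05 in the hairpin comparison); with only the 2 groups compared 5, 8 and 4; with a common prior variance 36 and 2 (TSA and hairpin); with library weights 44 and 94; and with the replicate number as a block 28 and 18. Leaving out 1 library gave 6 to 203, 7 to 16 and 4 to 941. Of the members, Hmga1 alone passed, in the hairpin and combined comparisons. Its low hairpin level was known when the family was chosen, so these calls are a description and nothing is read from them. The call of Hmga1 ended in the hairpin comparison with no filter, with 2 groups and with a common prior, and in the combined one with 2 groups. Leaving out any 1 library also ended the hairpin call of Hmga1. The combined call of Hmga1 ended on leaving out any library other than PE replicate 1. The causes were not tested, although leaving libraries out and fitting 2 groups leave fewer degrees of freedom. Hmga1, Hmga2 and Hmgb2 kept their direction in every comparison and alternative that gave a value; Hmga2 and Hmgb2 have none with a filter at 5 FPKM. Directions turned for Hmgn2 with TSA (0.00029 with a pseudocount of 0.1) and in the combined comparison (-0.029 with quantile normalization), and when 1 library was left out for Hmgb3 (-0.44 to 2.93 with TSA, -2.93 to 0.37 with the hairpin, -1.72 to 1.65 combined), Hmgn2 (-1.06 to 0.95, -0.27 to 0.58, -0.91 to 1.11) and Hmgn3 with the hairpin (-0.40 to 0.24). Replicate numbers were not taken to pair libraries: differences between replicates 1 and 2 correlated across features at 0.04 to 0.12 between groups, and the block changed no call of a member. PE replicate 2, the shallowest library, limits what low members can show.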
